A study of Rattus rattus with 6 samples.

Results

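Nppa (ENSRNOG00000008176) and Nppb (ENSRNOG00000008141) are the genes of atrial and B-type natriuretic peptide, the peptide hormones that heart muscle releases when its wall is stretched. Both were picked by their Ensembl identifiers, 2 of the 23976 genes in the deposited table, and both passed the filter on low values. The table holds identifiers only. The 32100-gene name table used here is of the black rat, and 0 of the identifiers occur in it. This lookup says nothing for or against the pairing of identifier and symbol, which was taken as given and could not be checked. The study compared the left ventricle of untreated, wild type, male Wistar-Kyoto rats of 3 months (young adult) with that of 24 months (old adult). Wistar-Kyoto is an inbred strain with normal blood pressure, best known as the comparison strain of spontaneously hypertensive rats. Each age had 3 libraries, 1 per rat, made from rRNA-depleted total RNA. Young libraries are called young replicates 1 to 3, and old libraries are called OH1, OH2 and OH5 after their column names, because these were not tied to single old samples.

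Both hormones are made as precursors that proteases such as corin and furin cut into the active form. They act through the receptor Npr1, which makes cyclic GMP, so that the kidney excretes salt and water and vessels relax, and they are cleared by the receptor Npr3 and by neprilysin, the product of Mme. In the adult heart Nppa is made mainly in the atria. The ventricle makes much Nppa before birth and little afterwards, and both genes are used as markers of ventricular load because they are made again when the wall is strained. Nppa and Nppb lie side by side. In the RefSeq table of the black rat (assembly Rrattus_CSIRO_v1) they are adjacent, with no other gene between them.

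Levels are in TPM, transcripts per 1000000, which are divided by transcript length, so that the levels of the 2 genes can be set side by side. Each library sums to 1000000 TPM, and no read depth or counting error can be derived from them. The 15 most abundant genes, all with means of 1000 TPM or more, took most of every library. The genes outside it held 6.39%, 10.6% and 10.5% of TPM in young replicates 1, 2 and 3 and 5.84%, 6.05% and 5.08% in OH1, OH2 and OH5. A gene with an unchanged place among these other genes therefore has a lower TPM in old ventricle. For this reason each level is also given as rescaled TPM, in which the 15 genes are left out and the rest of each library is brought to 1000000. In these bulk samples, fewer cells of a type and less RNA per cell cannot be told apart. No marker gene could be looked up by symbol, so the tissue could not be checked for atrial or other cells, and the genes of the receptors and proteases were not analysed here.

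Neither natriuretic peptide gene passed the test between ages, on either scale. In young ventricle Nppa was at 9.50 ± 2.96 TPM and Nppb at 18.2 ± 7.69 TPM (mean ± SD, n = 3 rats). In old ventricle Nppa was at 10.3 ± 4.76 TPM and Nppb at 12.7 ± 4.09 TPM (n = 3). On the rescaled level Nppa had a mean 1.76 times as high in old as in young, with groups that overlapped, and Nppb a mean 1.08 times as high. The direction for Nppb depended on the scale, since its deposited TPM in old was 0.694 times that in young.

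**Figure D1:**
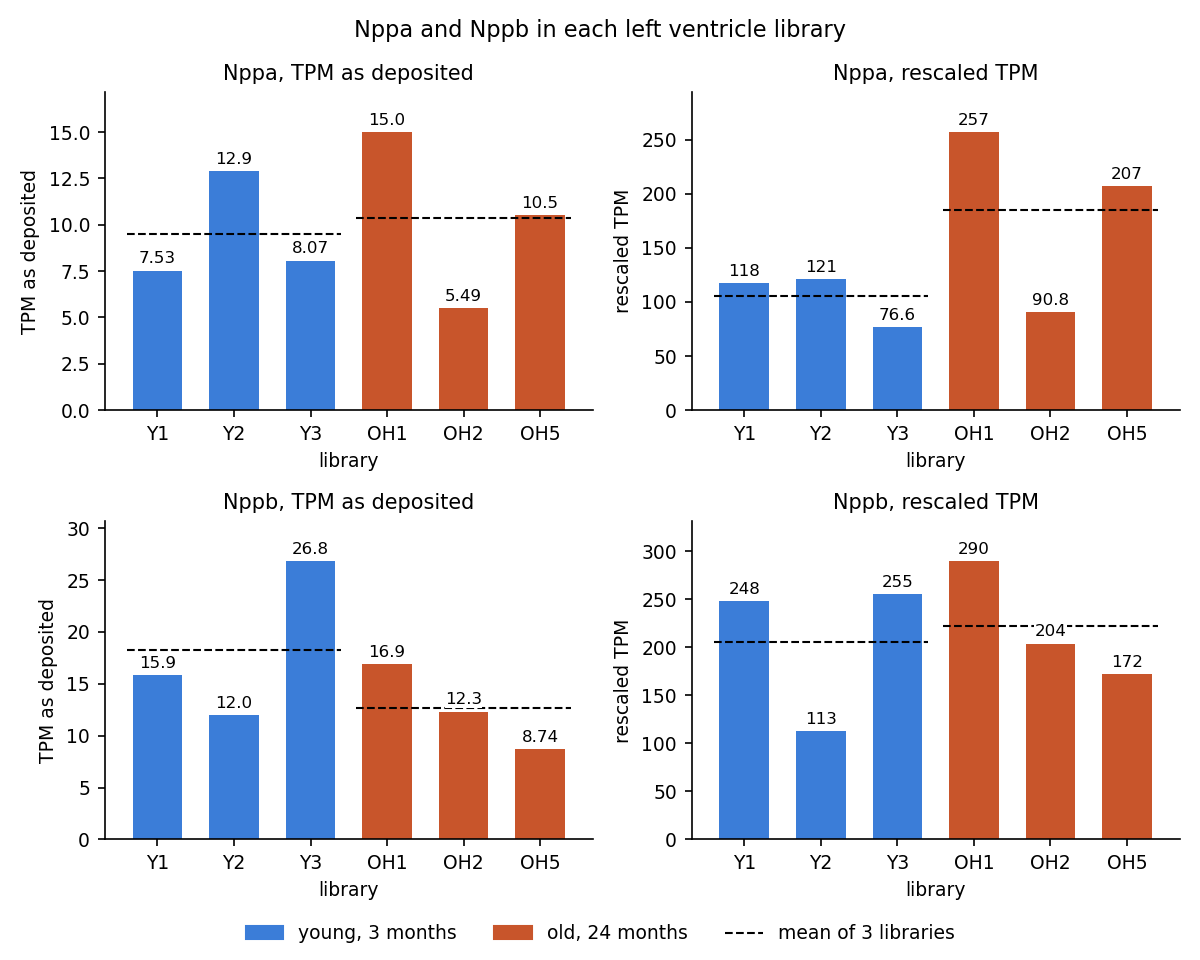
Levels of Nppa (top) and Nppb (bottom) in each of the 6 libraries, in TPM as deposited (left) and in rescaled TPM (right). Y1 to Y3 are young replicates 1 to 3, and dashed lines are means of 3 libraries. OH1 and OH5 stand above all young libraries in rescaled Nppa, whereas OH2 lies among them, and Nppb is lowest in young replicate 2 on the rescaled scale.

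Nppa, whose product is stored in granules and released on stretch, was at 7.53, 12.9 and 8.07 TPM in young replicates 1, 2 and 3 and at 15.0, 5.49 and 10.5 TPM in OH1, OH2 and OH5. The highest and the lowest of the 6 values were thus both from old rats. Its log2 fold change of old against young, taken on log2(TPM + 1), was 0.05 ± 0.30 (SE), with a 95% interval of -0.54 to 0.64 and a Benjamini-Hochberg adjusted p of 0.872 in limma-trend over 9502 genes. On this scale the tested genes had a median log2 fold change of -0.53, so that Nppa lay 0.59 above the typical gene. Of all tested genes, 96.5% had a lower log2 fold change. The exact two-sided permutation test of Nppa alone gave p = 1, where 3 against 3 libraries can give no less than 0.1.

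After rescaling, Nppa was at 118, 121 and 76.6 in young replicates 1, 2 and 3 and at 257, 90.8 and 207 in OH1, OH2 and OH5. The old libraries OH1 and OH5 were above every young library, and OH2 was below young replicates 1 and 2. The group values were 105 ± 24.8 in young and 185 ± 85.3 in old (SD, n = 3). The log2 fold change was 0.71 ± 0.36 (SE), with a limma unadjusted p of 0.0842 and an adjusted p of 0.281 over 9487 genes. The limma 95% interval of -0.12 to 1.54 runs from 0.920-fold to 2.91-fold. A rise of Nppa to nearly 3 times its young level and a small fall are both inside it. That interval draws in part on the spread of other genes. From the libraries of Nppa alone the 95% interval would be -0.68 to 2.10, which holds a larger fall and a larger rise. The exact permutation test gave p = 0.3.

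Leaving out OH2, the old library with the lowest Nppa, brought rescaled Nppa past the threshold. Without it the log2 fold change was 1.15 ± 0.22 (SE), the limma adjusted p was 0.0382, and 3.01% of the tested genes were called. Leaving out any other single library gave log2 fold changes of 0.41 (without OH1) to 0.83 (without young replicate 2), and none passed. Nothing in the labels sets OH2 apart from the other old libraries. On the deposited scale the sign itself turned, to -0.24 without OH1, -0.08 without young replicate 1, -0.04 without young replicate 3 and -0.0067 without OH5, and it reached 0.41 without OH2.

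Nppb, which the ventricle itself makes and which is measured in blood as a marker of heart failure, was at 15.9, 12.0 and 26.8 TPM in young replicates 1, 2 and 3 and at 16.9, 12.3 and 8.74 TPM in OH1, OH2 and OH5. Young replicate 3 was the highest and OH5 the lowest, and the other 4 libraries of both ages were interleaved. The deposited log2 fold change was -0.47 ± 0.31 (SE), with a 95% interval of -1.09 to 0.16 and a limma adjusted p of 0.174. This value lay 0.07 above the median of all tested genes, but its side of the median depended on the amount added before taking logs. With 0.1 added in place of 1, Nppb was at -0.49 against a median of -0.68. With 10 added it was at -0.30 against a median of -0.18. The exact permutation test gave p = 0.5. Leaving out young replicate 2 gave the lowest value, -0.71, and leaving out young replicate 3 the highest, -0.16.

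After rescaling, Nppb was at 248, 113 and 255 in young replicates 1, 2 and 3 and at 290, 204 and 172 in OH1, OH2 and OH5. Young replicate 2 was the lowest library and OH1 the highest, and all 3 old values lay within or just above the young range. The group values were 205 ± 80.1 in young and 222 ± 60.9 in old (SD, n = 3). The log2 fold change was 0.17 ± 0.32 (SE) with a limma adjusted p of 0.802, and the 95% interval of -0.57 to 0.91 runs from 0.672-fold to 1.88-fold. It turned to -0.22 without young replicate 2 and to -0.04 without OH1, and was highest at 0.37 without young replicate 3. The exact permutation test gave p = 0.8.

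For comparison with all tested genes, limma called 47.7% on the deposited scale and 6.07% after rescaling, against 0 of the 2 natriuretic peptide genes on each scale. The young and old libraries did not overlap for 55.0% of genes on the deposited scale and for 29.7% after rescaling, and they overlapped for Nppa and Nppb on both. Of all tested genes, 6.17% had a larger absolute log2 fold change than Nppa after rescaling and 53.5% a larger one than Nppb. The SE on the deposited scale rests mostly on a spread shared across genes (prior degrees of freedom 91.8). From their own libraries alone it would be 0.44 for Nppa and 0.41 for Nppb. After rescaling the prior degrees of freedom were 4.22, and the SE from each gene's own libraries would be 0.50 for Nppa and 0.44 for Nppb.

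**Figure D2:**
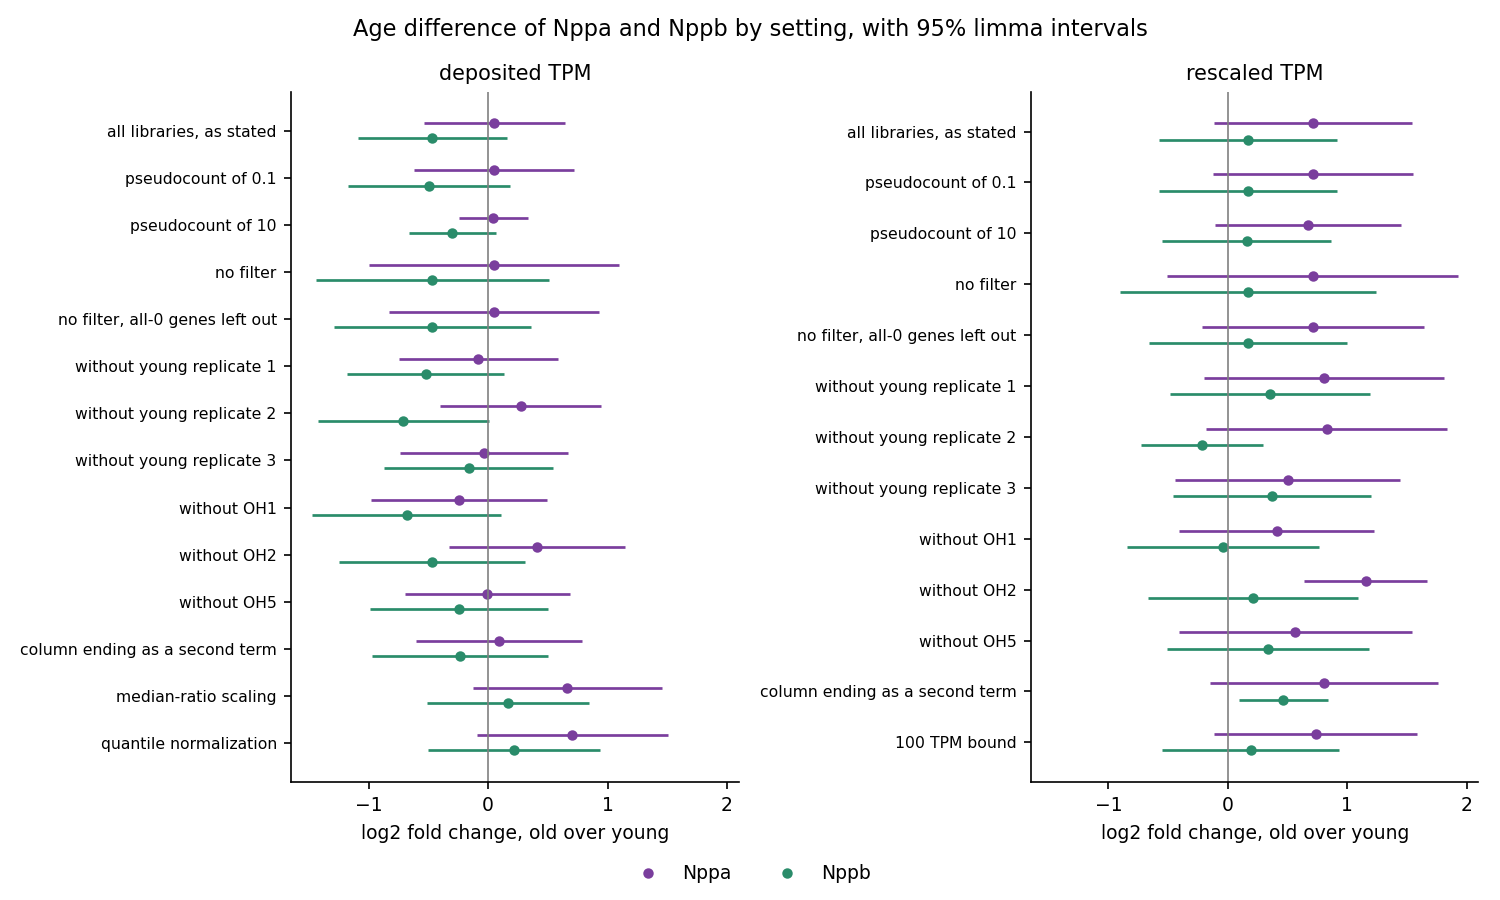
Log2 fold change of old over young for Nppa and Nppb (points) with 95% limma intervals (lines), on deposited (left) and rescaled TPM (right), with all libraries at the top and each alternative below. On the rescaled scale the Nppa interval is above 0 only without OH2, and the Nppb interval only with the ending of the column names as a term, where its adjusted p is 0.180.

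With all 6 libraries, both genes had a larger spread between libraries of one age than most tested genes. This also held with each single library left out. For each gene, however, a place above the central 90% of genes of like level rested on 1 library. On the rescaled scale the within-age SD of log2(TPM + 1), pooled over both ages, was 0.614 for Nppa and 0.541 for Nppb, against a median of 0.173 over the 9487 tested genes. The SD of Nppa was larger than that of 98.4% of tested genes, and that of Nppb larger than that of 97.5%. Among 3236 genes of like level, with a mean of 5 to 30 TPM, the median was 0.154 and the central 90% ran from 0.0611 to 0.406, with both natriuretic peptide genes above this range. Without OH2 the SD of Nppa was 0.325, inside the corresponding range of 0.0552 to 0.423 and larger than that of 86.4% of tested genes. Without young replicate 2 the SD of Nppb was 0.312, inside a range of 0.0473 to 0.394 and larger than that of 85.6% of tested genes. Leaving out any other single library kept each gene above the range. With the unexplained _1 or _2 ending of column names added to the model, the SD of Nppb was 0.201 and that of Nppa 0.684, against a range of 0.0517 to 0.416. Nppa varied 1.58-fold between young libraries and 2.83-fold between old libraries. Nppb varied 2.26-fold between young libraries and 1.68-fold between old libraries. The settings with libraries left out or with the ending were chosen after the data were seen. With 1 library per rat and depth unknown, differences between rats and counting error cannot be told apart in this spread. Genes of like level were matched on TPM only, not on transcript length or number of reads. These are descriptions of 6 libraries, and whether the spread of either gene differs with age was not tested.

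**Figure D3:**
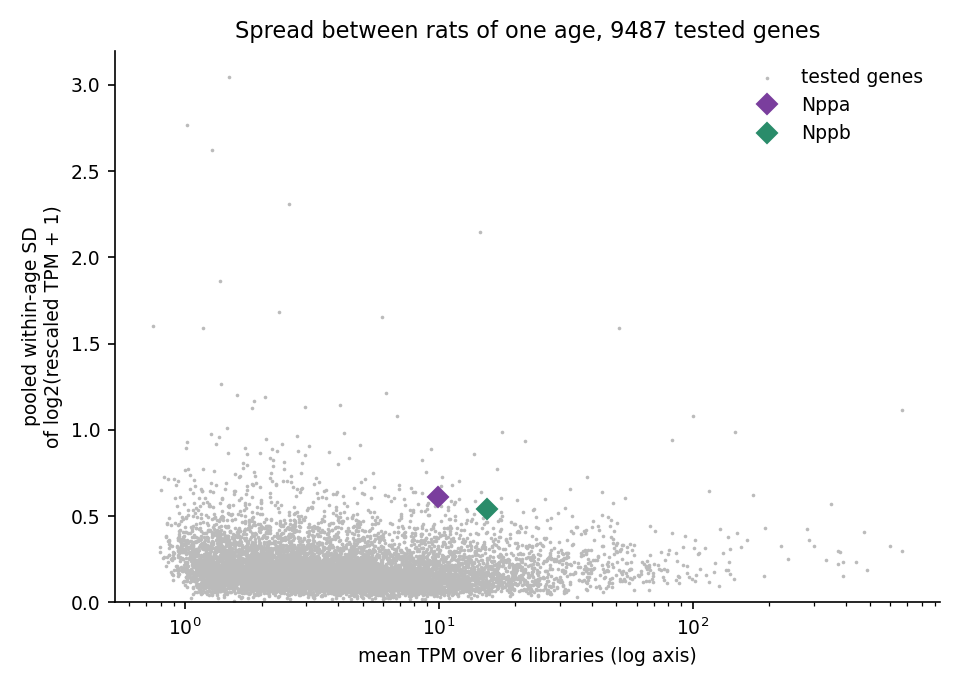
Pooled within-age SD of log2(rescaled TPM + 1) of each tested gene (grey points) against its mean TPM on a log axis, with Nppa and Nppb as diamonds. Nppa, at an SD of 0.614, and Nppb, at 0.541, lie in the upper margin of genes of like level. Without OH2 the value of Nppa is 0.325, and without young replicate 2 that of Nppb is 0.312. The spread is between libraries, 1 per rat, and includes counting error of unknown size.

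The place of each gene in the order of all 9502 tested genes moved accordingly. Nppa ranked 597th from the top in OH1 and 780th in OH5, but 3167th in young replicate 3, with 1900th, 1736th and 2467th in young replicates 1 and 2 and OH2. Nppb ranked 483rd in OH1, 632nd and 634th in young replicates 1 and 3, 806th in OH2, 1007th in OH5 and 1931st in young replicate 2. A rank within a library does not depend on how the library is scaled. By this measure Nppa stood highest in 2 of the 3 old hearts, and Nppb showed no such order by age.

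The 2 neighbours were compared within each library by their ratio, which is also free of the scaling. Nppa TPM divided by Nppb TPM was 0.474, 1.07 and 0.301 in young replicates 1, 2 and 3 and 0.888, 0.446 and 1.20 in OH1, OH2 and OH5. Nppb was thus the more abundant transcript in 4 of 6 libraries, and Nppa in young replicate 2 and OH5. Young rats had a mean log2 ratio of -0.90 ± 0.93 and old rats one of -0.36 ± 0.73 (SD, n = 3), a difference of 0.55 with an exact two-sided permutation p of 0.5. Leaving out single libraries moved this difference between 0.13 (without young replicate 3) and 1.05 (without young replicate 2). It was 0.23 without OH5 and 0.95 without OH2.

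Across the 6 libraries the 2 genes did not rise and fall together to a degree that could be told from 0. On log2(rescaled TPM + 1) Pearson's r was 0.08 (exact permutation p = 0.904) and Spearman's rho was -0.03 (exact p = 1). On the deposited scale r was -0.10 (exact p = 0.879) and rho -0.03 (exact p = 1). Adjusted over these 2 relations, p was 0.904 for both r and 1 for both rho. Without the 2 libraries farthest from the median of Nppa, r over the remaining 4 was -0.57 after rescaling (OH1 and OH5 left out) and -0.65 as deposited (OH1 and OH2 left out). The libraries left out were picked by their Nppa levels, and 4 libraries are too few to read a relation from. No conclusion is drawn from these 2 values. OH1 had the highest rescaled level of both genes, whereas young replicate 3 had the lowest Nppa and the second highest Nppb.

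**Figure D4:**
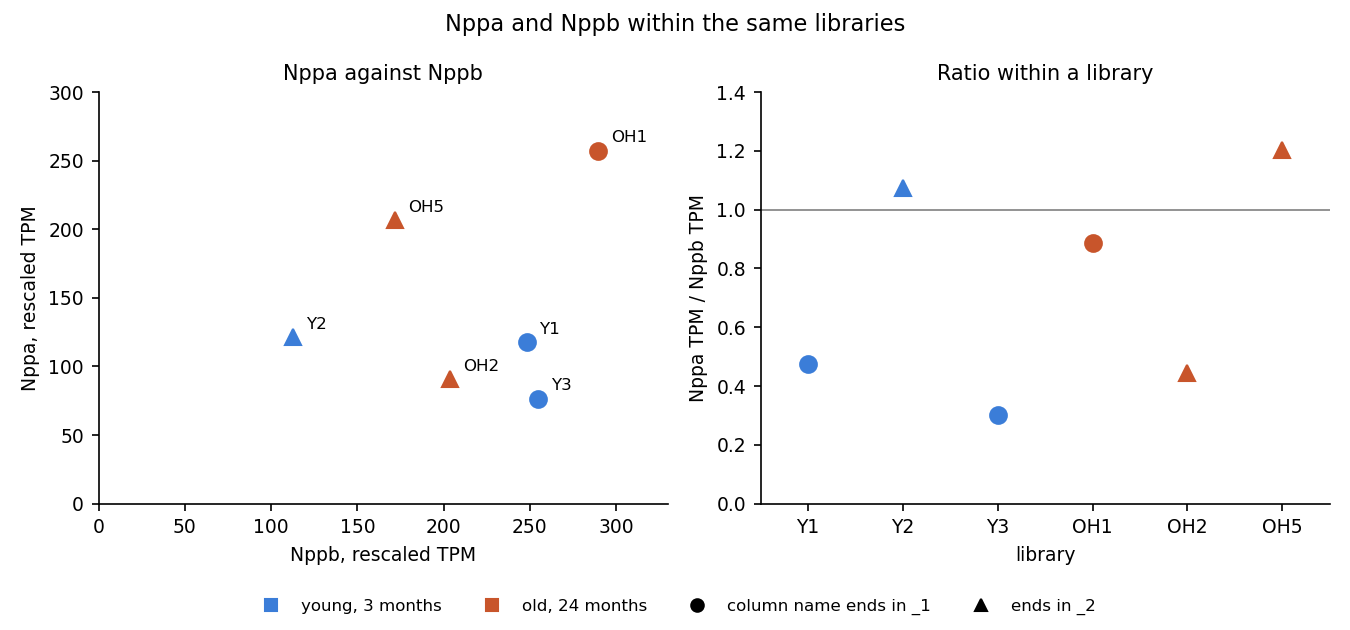
Left, rescaled TPM of Nppa against that of Nppb in the 6 libraries. Right, Nppa TPM divided by Nppb TPM in each library, with a line at 1. Colours give the age and symbols the ending of the column name, and ratios of 0.301 to 1.07 in young overlap those of 0.446 to 1.20 in old.

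The column names of OH1 and of young replicates 1 and 3 end in _1, and those of OH2, OH5 and young replicate 2 in _2, an ending that the labels do not explain. Rescaled Nppb was at 248, 255 and 290 in the libraries ending in _1 and at 113, 204 and 172 in those ending in _2, so that the libraries of the 2 endings did not overlap. The same held for 8.58% of the tested genes, and for 29.7% the young and old libraries did not overlap. A full separation of 3 against 3 libraries has an exact two-sided permutation p of 0.1. Genes separated by ending no more often than this, so the separation of Nppb by ending is not unusual. Within the ending _1, rescaled Nppb was at a mean of 252 in 2 young libraries and at 290 in OH1. Within the ending _2 it was at 113 in 1 young library and at a mean of 188 in 2 old libraries. With the ending as a second term of the model, the log2 fold change of rescaled Nppb was 0.46 ± 0.16 (SE), with a limma unadjusted p of 0.0220 and an adjusted p of 0.180.

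For Nppa the libraries of the 2 endings overlapped. Within the ending _1, rescaled Nppa was at a mean of 97.2 in young and at 257 in OH1, and within _2 at 121 in young and at a mean of 149 in old. As deposited, Nppa in old was 1.93 times that in young within _1 and 0.620 times within _2, so the direction was not shared. Deposited Nppb was lower in old within both endings, at 0.792 and 0.876 times the young level. The ratio of Nppa to Nppb in old was 2.35 times that in young within _1 and 0.682 times within _2. Each ending holds 1 library of one age and 2 of the other, which allows no test within it.

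The genes whose rescaled levels over the 6 libraries were most like those of the natriuretic peptide genes are known here by identifier only. For Nppa they were ENSRNOG00000012436 (Pearson r = 0.985) and ENSRNOG00000013948 (r = 0.966), and 5 genes in all reached 0.95. For Nppb they were ENSRNOG00000016874 (r = 0.998) and ENSRNOG00000017593 (r = 0.985), with 13 genes at 0.95 or more. Of the 9486 other genes, 3440 were more like Nppa than Nppb was, and 5224 were more like Nppb than Nppa was. These are the extremes of a search through all tested genes over 6 libraries and are given as a description.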

How the data were processed

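RNA from the left ventricle of 6 male rats was sequenced after rRNA depletion, per the labels' protocols. The submitters' processing notes name Salmon and the genome build mRatBN7.2, with no version of the tool. That build is of Rattus norvegicus, although the species in the labels is Rattus rattus. The authors deposited TPM per Ensembl gene, 1 column per library, for 23976 genes. Their annotation release was not stated in the sources used. Young columns carry the individual numbers of the young samples. The numbers of OH1 and OH2 are not among those of the old individuals (5, 11 and 12) and that of OH5 is, so the old columns were assigned to the group only.

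TPM were tested as deposited, and after leaving out 15 genes (mean of 1000 TPM or more) and rescaling each library to 1000000. Genes that reached 1 TPM in 3 or more libraries were kept (9502, and 9487 after rescaling) and fitted with limma-trend (limma 3.58.1, R 4.3.3) on log2(value + 1) with age as the only term. This scale understates changes of low genes. p-values were adjusted by Benjamini-Hochberg over all genes of a fit, with a threshold of 0.05. Single values were compared by exact two-sided permutation tests of the difference in mean log2 values. The fit was tested on simulated data built from rescaled TPM, with errors independent between genes. Deposited TPM were not simulated, so that test does not cover shifts shared by all genes of a library. Depth is unknown, and 3 rats per age limit the precision.

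The genes most like Nppa or Nppb are the 2 with the highest Pearson r over the 6 libraries. Lists of pathway genes and cell type markers could not be matched to identifiers and were not tested. The 2 genes, the lists, the rescaling, the column ending and the range of 5 to 30 TPM were chosen with earlier results of these data known. Alternatives were pseudocounts of 0.1 and 10, no filter, each library left out, the column ending as a term, median-ratio scaling, quantile normalization and leaving out all other genes with means of 100 TPM or more. The spread between libraries of one age was also taken with each library left out and with the column ending as a term.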

Additional observations from a re-analysis of the deposited data

How the results depend on the processing

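Over all alternatives, Nppa passed the threshold in 1 of 12 on the rescaled scale (without OH2) and in 0 of 13 on the deposited scale, and Nppb in 0 of 12 and 0 of 13. In the rescaled comparison Nppa kept its direction in all 12, with log2 fold changes of 0.41 (without OH1) to 1.15 (without OH2) and adjusted p of 0.0382 to 0.636. Rescaled Nppb had adjusted p of 0.180 to 1 and log2 fold changes of -0.22 (without young replicate 2) to 0.46 (column ending as a term). With single libraries left out it ran from -0.22 to 0.37, and was -0.04 without OH1. Deposited Nppa ran from -0.24 (without OH1) to 0.41 (without OH2) over the libraries left out, with -0.08 without young replicate 1, -0.04 without young replicate 3 and -0.0067 without OH5. Deposited Nppb ran from -0.71 to -0.16, and turned to 0.17 under median-ratio scaling and 0.22 under quantile normalization, which move the median of all genes close to 0 (-0.02 and -0.01). The same scalings gave 0.66 and 0.71 for Nppa. The difference in the log2 ratio of Nppa to Nppb ran from 0.13 to 1.05 when single libraries were left out and stayed positive.

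On the deposited scale 4533 genes passed (84 higher and 4449 lower in old), and after rescaling 576 (252 and 324). Median-ratio scaling gave 581 (260 and 321), quantile normalization 574 (269 and 305), and the column ending as a term 1385 on the deposited scale and 174 after rescaling. Without a filter limma called 1 gene as deposited and 6 after rescaling, and, with the genes at 0 in all libraries left out, 3 and 334. At an unadjusted p below 0.05 these 4 fits had 6462, 3437, 6968 and 3496 genes. The cause was not tested. Without young replicates 1, 2 and 3, OH1, OH2 and OH5 in turn, 8857, 671, 838, 501, 702 and 388 genes passed as deposited, and 453, 226, 194, 67, 286 and 163 after rescaling, in fits of fewer samples. No paired analysis was possible because 2 of the 3 old columns have numbers that match no old sample, so the old columns were given no replicate numbers. Apart from this, each library is from a different rat, and the labels state no pairing of young with old rats. Depth is unknown, so what it limits cannot be stated.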
